A study of Mus musculus with 10 samples.

Results

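The plasma cell program was followed through 9 genes, Jchain, Sdc1, Mzb1, Prdm1, Irf4, Derl3, Pou2af1, Fkbp11 and Txndc5, chosen by name and matched to their Ensembl identifiers in every library. They are 9 of 33585 genes with a value, and all 9 passed the level filter of 1 FPKM (fragments per kilobase of transcript scaled to the mapped fragments of a library, averaged over the libraries) together with 13334 genes in all. RNA came from tumor-draining lymph nodes (TDLN) of 10 female BALB/c mice aged 6 weeks, 1 library per mouse. Every mouse carried a 4T1 tumor, a transplantable mammary carcinoma line of BALB/c origin, and every tumor was destroyed by microwave ablation (MWA) on day 10. The 5 mice labelled MWA received PBS, and the 5 labelled MWA+2DG received 2-deoxy-D-glucose (2DG), a glucose analogue that blocks glycolysis, at 500 mg/kg. Both were given by repeated intraperitoneal injection from day 10, with days counted from the injection of tumor cells. The labels give only the treatment and the tissue, and the other details come from the methods of the study. Nodes were taken on day 15, and the comparison asks what interference with glycolysis after ablation changed in them. No node without a tumor or without ablation was compared here.

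Plasma cells arise from activated B cells and devote much of their RNA and secretory apparatus to antibody. Irf4 and Prdm1 encode the transcription factors that drive the change, Pou2af1 a coactivator that B cells already use, and Sdc1 the surface proteoglycan CD138 by which plasma cells are recognised. Jchain links IgM and IgA into polymers, Mzb1 and Txndc5 help fold and assemble immunoglobulin in the endoplasmic reticulum, Fkbp11 is a prolyl isomerase of the same compartment, and Derl3 takes part in removing misfolded proteins from it. Igkc, the kappa light chain constant gene, and Ighm, the mu heavy chain, give the immunoglobulin RNA of the same library. Several of the 9 genes are also used by other cells, Irf4 and Prdm1 by T cells, Mzb1 by plasmacytoid dendritic cells, Sdc1 by epithelium and Txndc5 by stroma.

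The tissue carried the transcripts its label implies. All 12 lymph node genes examined, among them Ccl21a, Cxcl13 and Ccr7, were above 0 in every library, and none of them passed the rule for a group difference that is given below (median log2 difference -0.01). Summed FPKM was between 312143 and 359984 per library, and read depth is unknown, since FPKM holds no counts. The libraries stood apart in 2 ways that their labels do not name. Alb, the liver's main secreted protein, was at most 0.0486 FPKM in replicates 1 and 2 of both groups and between 35.1 and 102 in replicates 3 to 5, so values within these 2 replicate sets are given beside the results. Interferon-induced genes were high in MWA+2DG replicate 5 and MWA replicate 4 (Irf7 at 359 and 134 FPKM, against 15.5 to 74.4 in the other 8). The counts of genes past the P and fold rule were therefore repeated without those 2 libraries, and the other counts were not. The labels do not say whether the nodes were processed together, and P values measure the spread between these mice.

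Levels of the 9 genes spanned a wide range, and since FPKM is per length they can be set in order. Jchain had the highest mean over the 10 libraries (260 ± 163 FPKM, SD, n = 10), followed by Pou2af1 at 214 and Mzb1 at 127. Txndc5 averaged 49.1, Irf4 19.99, Derl3 10.4, Sdc1 4.19, Fkbp11 2.20 and Prdm1 1.80 FPKM. Jchain was above Pou2af1 in only 5 of 10 libraries, and Fkbp11 above Prdm1 in 7, so these neighbours do not differ beyond their spread. Pou2af1 exceeded Mzb1 in 9 libraries, and every other neighbour in the order exceeded the next in all 10. The genes also differed in how much they moved from mouse to mouse. The highest library exceeded the lowest by a factor of 5.15 for Jchain, 4.75 for Derl3, 3.22 for Fkbp11, 2.69 for Mzb1 and 2.12 for Sdc1. It did so by 1.96 for Prdm1, 1.56 for Txndc5, 1.43 for Pou2af1 and 1.24 for Irf4. Jchain and Derl3 therefore varied most, and the regulators Pou2af1 and Irf4 least. The corresponding factor was 4.08 for Igkc, and for Ighm it lay between those of Txndc5 and Pou2af1.

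**Figure D1:**
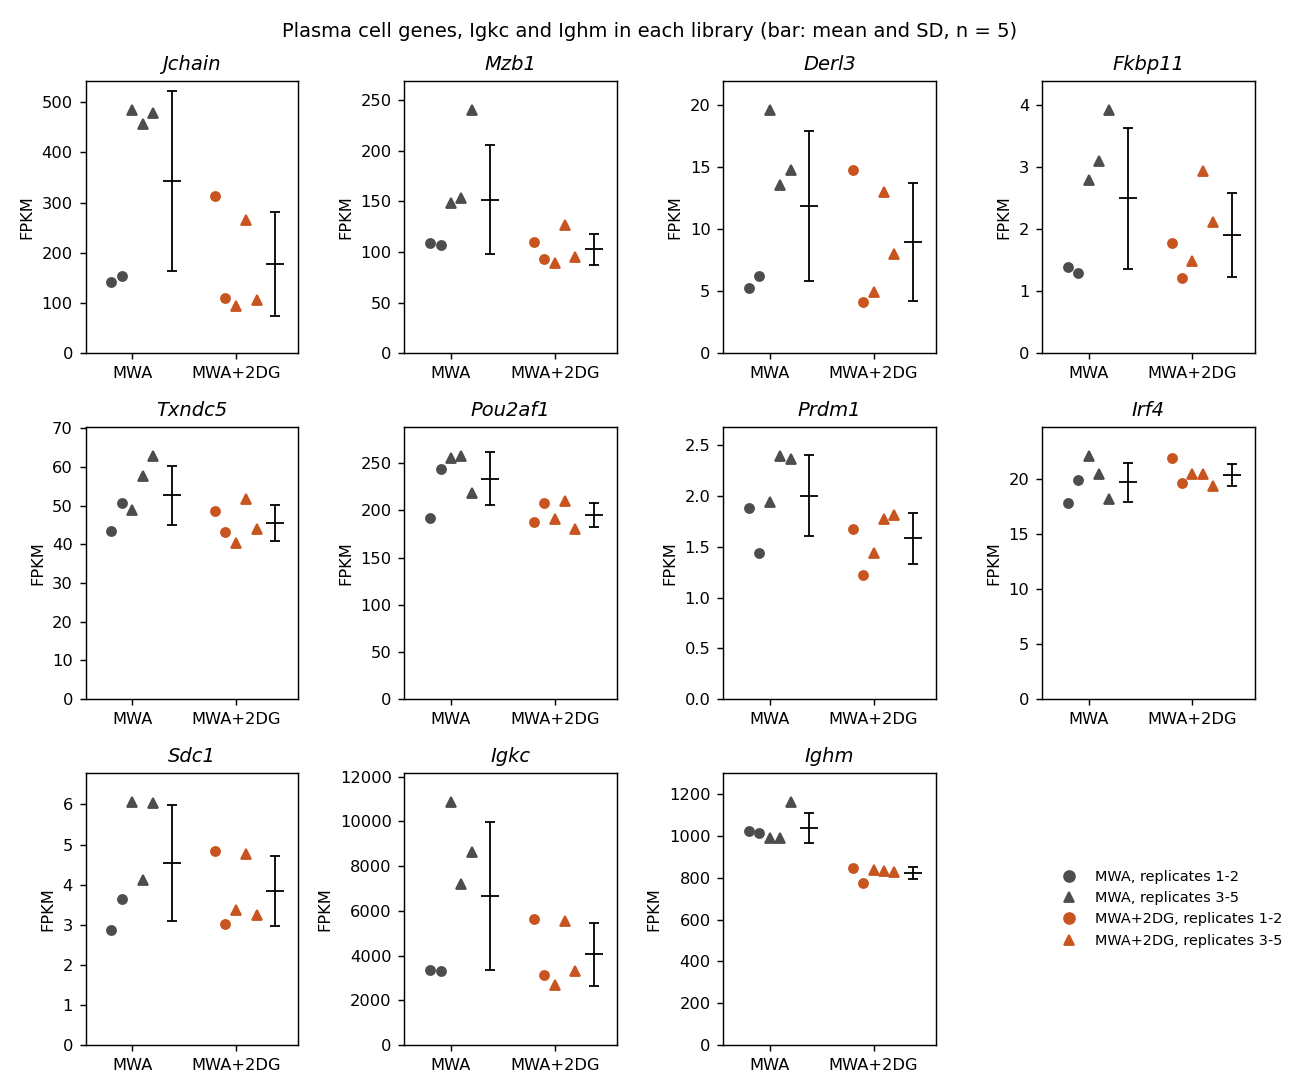
FPKM of the 9 plasma cell genes, Igkc and Ighm in each library (linear axes from 0), with points by replicate, circles for replicates 1 and 2, triangles for replicates 3 to 5, and a bar for the mean and SD of 5 mice. The 5 MWA+2DG points of Ighm lie below all 5 MWA points, while the groups overlap for every one of the 9 genes.

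In MWA+2DG nodes 8 of the 9 genes had a lower mean FPKM than in MWA nodes. Mzb1, at 0.678 of the MWA level, and Pou2af1, at 0.836, passed the rule for a difference given below, which 1.87% of all genes passed as lower, and no gene passed after adjustment over all genes tested. Jchain had the lowest ratio of the 9, 0.517, with a spread between mice too wide to pass, and Irf4 was at 1.04 of the MWA level. The genes of antibody assembly are given first.

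Jchain (ENSMUSG00000067149) was at 142, 153, 484, 457 and 479 FPKM in MWA replicates 1 to 5 and at 312, 109, 94.0, 265 and 106 FPKM in MWA+2DG replicates 1 to 5. Both groups split into high and low mice, 3 high in MWA and 2 in MWA+2DG, and 3 MWA+2DG libraries lay below every MWA library. The mean was 343 ± 179 FPKM in MWA and 177 ± 103 in MWA+2DG (SD, n = 5 each). On the log2(FPKM + 1) scale, which understates changes of low genes, the difference was -0.93 (SE 0.48, 95% confidence interval -1.98 to 0.12), and it did not pass the test (limma P = 0.0767, Benjamini-Hochberg adjusted p = 0.995, two-sided exact permutation test of the mean FPKM p = 0.0952). Adjusted p was 0.995 for every one of the 9 genes. Leaving out any 1 of MWA replicates 1 and 2 or MWA+2DG replicates 1 and 4 let Jchain pass, with differences between -1.20 and -1.12. In a bulk library such as these, fewer cells of a type and less RNA per cell cannot be told apart.

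Mzb1 (ENSMUSG00000024353) was at 109, 107, 148, 153 and 240 FPKM in MWA and at 109, 93.0, 89.1, 126 and 95.5 in MWA+2DG. MWA replicates 3 to 5 were above all 5 MWA+2DG libraries, whereas MWA replicates 1 and 2 lay among them. The mean was 0.678 of the MWA level (103 ± 15.3 against 151 ± 53.9, SD, n = 5 each). The log2 difference of -0.50 (SE 0.20, interval -0.95 to -0.05) passed the study's rule, which asks for an unadjusted P below 0.05 and a log fold change beyond 0.25 (limma P = 0.0321, exact permutation p = 0.0635). Leaving out any 1 of MWA replicates 3, 4 and 5 or MWA+2DG replicates 2, 3 and 5 raised its limma P above the limit, to between 0.0536 and 0.0691, with log2 differences between -0.49 and -0.32. Mzb1 shares exon sequence with SPATA24 on the same strand in GENCODE M21, and its value is uncertain to that extent.

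Derl3 (ENSMUSG00000009092) was at 5.27, 6.24, 19.5, 13.5 and 14.7 FPKM in MWA and at 14.8, 4.12, 4.96, 13.0 and 8.02 in MWA+2DG. Its 5 highest libraries were those of Jchain, and the difference was -0.36 (SE 0.40, exact permutation p = 0.421). Fkbp11 (ENSMUSG00000003355) was at 1.39, 1.29, 2.79, 3.10 and 3.91 FPKM in MWA and at 1.77, 1.22, 1.48, 2.94 and 2.12 in MWA+2DG, a difference of -0.23 (SE 0.23, exact permutation p = 0.349). Both genes overlapped widely between the groups. Leaving out 1 mouse at a time gave differences between -0.59 and -0.16 for Derl3 and between -0.37 and -0.09 for Fkbp11, none of which passed the rule. Txndc5 (ENSMUSG00000038991) was steadier, at 43.4, 50.7, 48.7, 57.5 and 62.8 FPKM in MWA and at 48.7, 43.2, 40.3, 51.7 and 43.9 in MWA+2DG. Its difference of -0.20 (SE 0.11) did not pass the test (exact permutation p = 0.127) but passed the rule without MWA replicate 1, at -0.26. Exons of Txndc5 overlap Bmp6 and Gm31834 on the opposite strand. The library protocol marks strand, and whether the counting used it is not stated in the sources used here.

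Among the regulators, Pou2af1 (ENSMUSG00000032053) was at 192, 244, 255, 258 and 218 FPKM in MWA and at 187, 208, 191, 210 and 180 in MWA+2DG. All MWA libraries but replicate 1 lay above all 5 MWA+2DG libraries. The MWA+2DG mean was 0.836 of the MWA mean (195 ± 13.0 against 233 ± 28.0, SD, n = 5 each). The difference of -0.25 (SE 0.09, interval -0.46 to -0.04) passed the rule just at its fold limit (limma P = 0.0223, exact permutation p = 0.0317). It no longer passed without any 1 of MWA replicates 2, 3 and 4 or MWA+2DG replicates 1, 3 and 5, where it was between -0.24 and -0.21. Nor did it pass when libraries were rescaled to a common total of 1000000 (-0.19) or after quantile normalization (-0.18).

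Prdm1 (ENSMUSG00000038151) was at 1.88, 1.44, 1.95, 2.39 and 2.37 FPKM in MWA and at 1.67, 1.22, 1.44, 1.78 and 1.82 in MWA+2DG. All MWA libraries but replicate 2 were above every MWA+2DG library, and the difference was -0.21 (SE 0.11, exact permutation p = 0.0952). Without MWA replicate 2 it was -0.29 and passed the rule. Irf4 (ENSMUSG00000021356) was at 17.8, 19.8, 22.0, 20.4 and 18.1 FPKM in MWA and at 21.9, 19.6, 20.4, 20.4 and 19.4 in MWA+2DG. It was the only 1 of the 9 with a positive difference, 0.05 (SE 0.07, interval -0.11 to 0.21, exact permutation p = 0.5). Sdc1 (ENSMUSG00000020592), the surface marker, was at 2.86, 3.63, 6.07, 4.12 and 6.02 FPKM in MWA and at 4.83, 3.03, 3.36, 4.76 and 3.23 in MWA+2DG, with a difference of -0.17 (SE 0.18, exact permutation p = 0.389). With 1 mouse left out it was between -0.29 and -0.08 and did not pass.

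Counted together, 8 of the 9 differences were negative, where 6323 of all 13334 genes tested were. Their median was -0.23 against 0.01 over all genes tested. Several of the 9 rose and fell in the same libraries, as given below, so their signs are not independent. Mzb1 and Pou2af1 passed the P and fold rule as lower, 2 of 9, where 1.87% of all genes did (249 of 13334). None of the 9 passed as higher, where 0.952% of all genes did. At an adjusted p below 0.05, limma called 0 of the 9 and 0% of all genes, with 567 genes at an unadjusted P below 0.05. The Wilcoxon rank-sum test had 416 genes at an unadjusted P below 0.05 and called 0 after adjustment. With 5 against 5 libraries its smallest P is 0.00794, so it could hardly call a gene after adjustment over 13334. In 0.51% of all genes every MWA+2DG library lay below every MWA library, and in 0.292% every one lay above. None of the 9 genes was among either. Rescaling to a common total changed the balance over all genes from 127 higher and 249 lower to 328 higher and 159 lower, and with immunoglobulin genes taken out of that total to 180 and 202. Under each of these scalings 8 of the 9 differences were negative, and Mzb1 alone passed after either rescaling. Without MWA replicate 4 and MWA+2DG replicate 5, those high in interferon-induced genes, 0 of the 9 passed, with Mzb1 at -0.46 and Pou2af1 at -0.18.

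**Figure D2:**
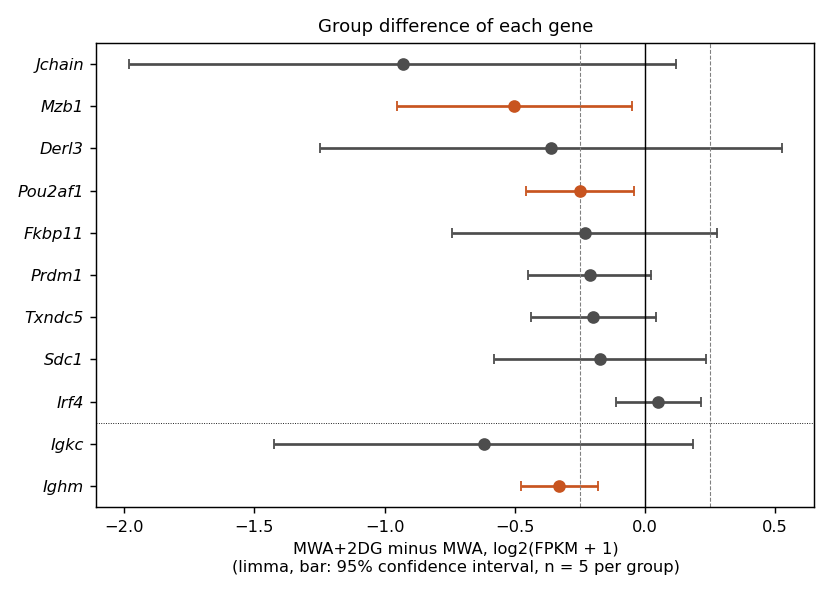
Difference between MWA+2DG and MWA on the log2(FPKM + 1) scale for each gene, with the limma 95% confidence interval (bars), the fold limits of -0.25 and 0.25 (dashed) and genes past the P and fold rule in orange. Mzb1, Pou2af1 and Ighm have intervals below 0, and the wide intervals of Jchain, Derl3 and Igkc include it.

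The immunoglobulin transcripts were then set beside the 9 genes. Igkc (ENSMUSG00000076609) was at 3333, 3314, 10878, 7193 and 8619 FPKM in MWA and at 5643, 3148, 2665, 5531 and 3324 in MWA+2DG. Its difference was -0.62 (SE 0.36, exact permutation p = 0.135). It passed the rule without MWA replicate 1 or MWA replicate 2 (-0.83 in each case) and was -0.40 without MWA replicate 3. The 10 libraries fell into a set of 5 at 5531 FPKM or more (MWA replicates 3, 4 and 5, MWA+2DG replicates 1 and 4) and a set of 5 at 3333 or less. Ighm (ENSMUSG00000076617) divided the libraries differently, at 1024, 1014, 992, 991 and 1164 FPKM in MWA and at 849, 776, 836, 833 and 828 in MWA+2DG. The groups did not overlap, and 0.51% of all genes tested were likewise lower in every MWA+2DG library. The mean of Ighm was 0.795 of the MWA mean (824 ± 28.3 against 1037 ± 72.1, SD, n = 5 each). The difference was -0.33 (SE 0.07, limma P = 0.000472, Benjamini-Hochberg adjusted p = 0.995, exact permutation p = 0.00794, the smallest that 5 against 5 libraries can give). In these 10 libraries Ighm thus divided by treatment group, without passing after adjustment, and Igkc followed a split that ran through both groups.

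Several of the 9 genes followed the split of Igkc. Jchain, Sdc1, Mzb1 and Derl3 had the same 5 highest libraries as Igkc, which is 4 of 9, where 0.435% of all genes tested had them (58 of 13334). Irf4, Pou2af1, Fkbp11 and Txndc5 shared 4 of those libraries and Prdm1 3. The share of all genes with 4 or 3 was not counted, so these counts do not rank the genes by likeness to Igkc. The lowest of the 5 libraries rich in Igkc had 265 FPKM of Jchain, and the highest of the other 5 had 153. For Derl3 these values were 13.0 and 8.02, for Sdc1 4.12 and 3.63, and for Mzb1 109.3 and 108.7, so the gap was wide for Jchain and Derl3 and narrow for Mzb1. The 5 highest libraries of Ighm were the 5 MWA libraries, of which the 9 genes shared 2 to 4. Sharing all 5 would mean groups without overlap, which 0.51% of all genes showed as lower and none of the 9 did. That count therefore says nothing further about a relation to Ighm. Because the libraries form 2 clusters of 5 on either transcript, no correlation with Igkc or Ighm is given across the 10 or within clusters of that size.

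**Figure D3:**
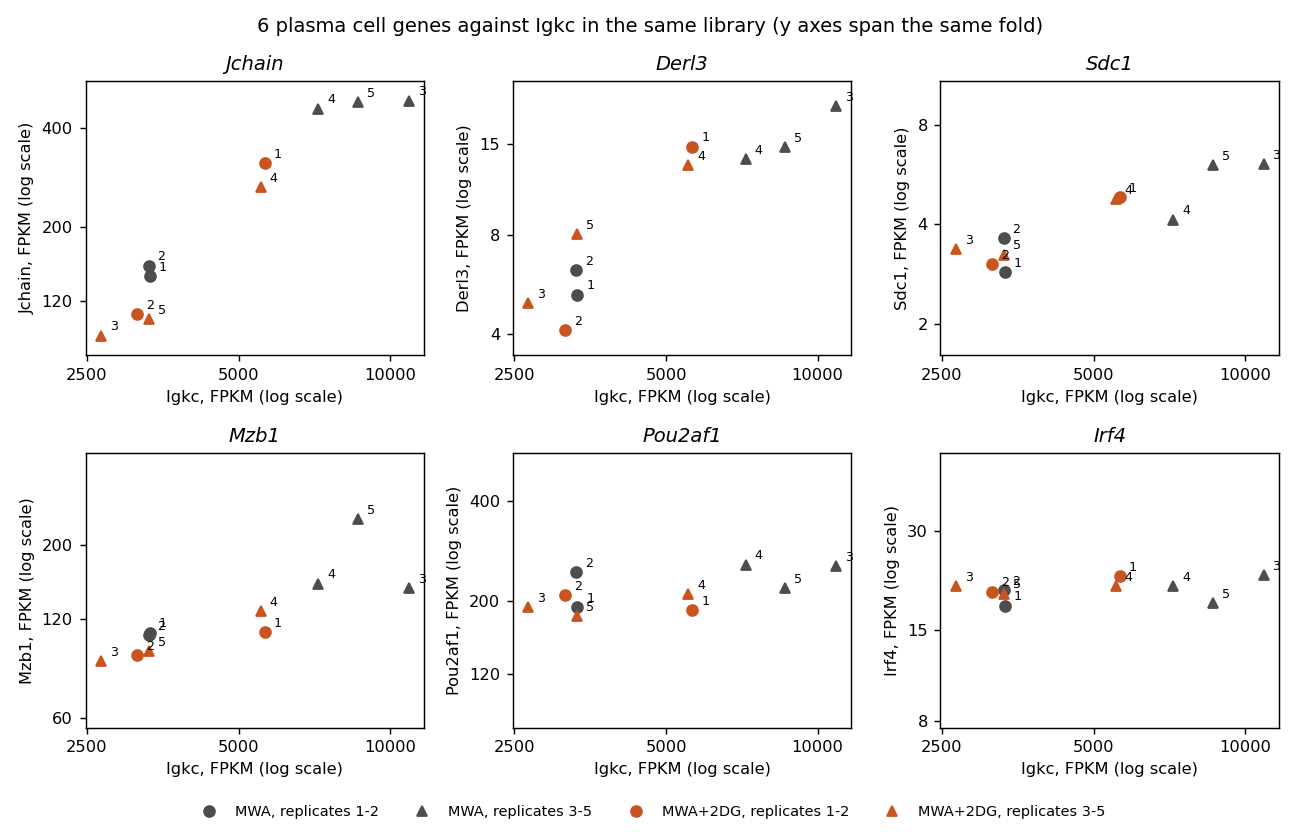
FPKM of 6 genes against Igkc in the same library (log axes, each y axis over the same fold range, numbers give the replicate). Jchain runs from 94.0 to 484 and Derl3 from 4.12 to 19.5 between libraries low and high in Igkc, while Irf4 stays between 17.8 and 22.0.

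Each gene was then divided by the immunoglobulin RNA of its own library. The ratio of Jchain to Igkc was 31.8 to 55.4 per 1000 in MWA+2DG and 42.7 to 63.6 per 1000 in MWA, a log2 difference of -0.32 (exact permutation p = 0.135). Derl3 to Igkc was nearly constant in MWA, at 1.58 to 1.88 per 1000, and 1.31 to 2.62 per 1000 in MWA+2DG (difference 0.21, exact permutation p = 0.278). Without MWA+2DG replicate 2 that difference was 0.38 (exact permutation p = 0.0238). For Sdc1 to Igkc it was 0.41 over all libraries (exact permutation p = 0.103) and 0.55 without MWA replicate 2 (exact permutation p = 0.0159). These 2 omissions are named because no other brought a ratio to Igkc below 0.05. Leaving out any other mouse gave an exact permutation p of 0.246 to 0.516 for Derl3 and 0.0873 to 0.206 for Sdc1. Mzb1 to Igkc differed by 0.11 (exact permutation p = 0.714). Of 18 ratios, 9 genes to each of Igkc and Ighm, 1 had an exact permutation p below 0.05. It was Irf4 to Ighm, at 23.4 to 25.8 per 1000 in MWA+2DG and 15.6 to 22.2 in MWA (difference 0.38, exact permutation p = 0.00794), where Irf4 itself differed by 0.05 and Ighm by -0.33. The ratio of Igkc to Ighm was 3.19 to 6.65 in MWA+2DG and 3.25 to 10.96 in MWA (exact permutation p = 0.532).

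Group differences of the genes of secretion were unlike in the 2 replicate sets, but for no gene did this contrast of differences pass after adjustment. In replicates 1 and 2, Jchain was between 142 and 153 FPKM in MWA and between 109 and 312 in MWA+2DG, a difference of 0.32. In replicates 3 to 5 it was between 457 and 484 in MWA and between 94.0 and 265 in MWA+2DG, a difference of -1.77 (SE 0.36, limma, Benjamini-Hochberg adjusted p = 0.607). Within replicates 3 to 5, Jchain, Mzb1, Derl3 and Pou2af1 passed the rule as lower, 4 of 9, where 2.89% of all genes did. Among the lists of other cells, 4 of 15 liver genes, 2 of 10 stromal genes, 1 of 7 lymphatic endothelial genes and 1 of 12 plasmacytoid dendritic cell genes also passed as lower there, as did 2 of 8 survival ligands and homing receptors, and their part in the result was not tested. In those 6 libraries Jchain, Mzb1, Prdm1, Derl3 and Pou2af1 were lower in every MWA+2DG library than in any MWA library, 5 of 9, where 5.08% of all genes were. Replicates 1 and 2 hold only 2 mice per group, and their differences were not tested. These differences were 0.42 for Derl3, 0.20 for Sdc1, 0.13 for Irf4, 0.08 for Fkbp11, -0.03 for Txndc5, -0.09 for Mzb1, -0.12 for Prdm1 and -0.13 for Pou2af1. The positive values of Jchain and Derl3 rest on MWA+2DG replicate 1, at 312 and 14.8 FPKM. MWA+2DG replicate 2, at 109 and 4.12, lay below MWA replicates 1 and 2. The contrast of the sets, the difference in replicates 3 to 5 minus that in replicates 1 and 2, was -2.09 for Jchain (SE 0.69) and -1.60 for Igkc (SE 0.47). In the limma fit of that contrast 341 of 13334 genes had an unadjusted P below 0.05. That share is below the 0.05 that the limit alone would give with no contrast in any gene. Jchain was the only 1 of the 9 among them, with Igkc, and 0 genes passed after adjustment (Benjamini-Hochberg adjusted p of at least 0.0599). Ighm differed by -0.33 in both sets.

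**Figure D4:**
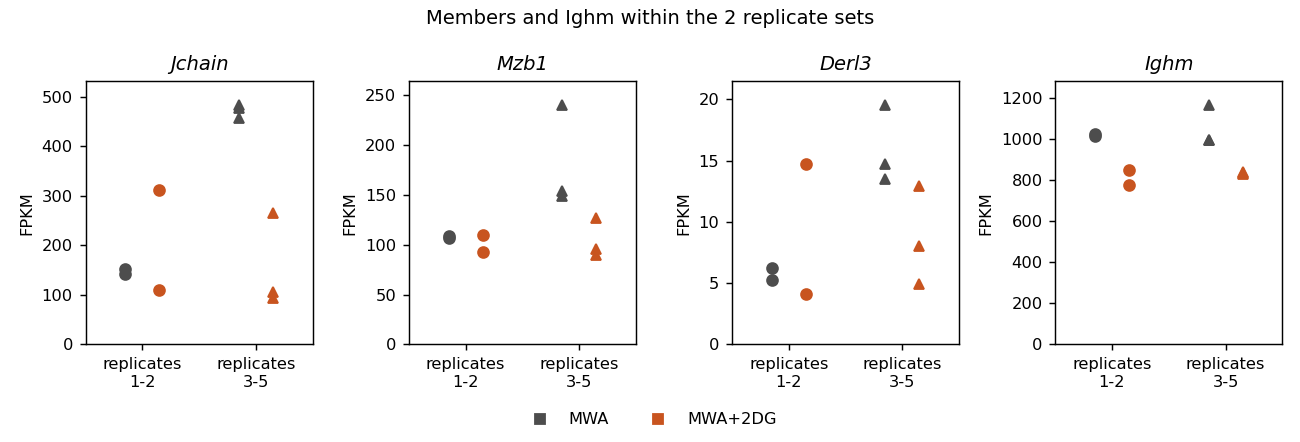
FPKM of Jchain, Mzb1, Derl3 and Ighm in replicates 1 and 2 and in replicates 3 to 5 (linear axes from 0, 1 point per mouse, grey for MWA and orange for MWA+2DG). The groups separate for the first 3 genes only in replicates 3 to 5, and for Ighm in both sets.

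Replicates 3 to 5 were also those with liver transcripts. The summed FPKM of the 16 liver genes was 87.0 to 102 in replicates 1 and 2 and 158 to 295 in replicates 3 to 5, and it was 90.7 to 295 in MWA and 87.0 to 250 in MWA+2DG. Serpina1a and Serpina1b, at 21.8 to 30.4 and 56.9 to 69.8 FPKM over all libraries, made up most of the sum in replicates 1 and 2. Of the 16, 13 were at 0 in at least 1 library. None of the 15 tested passed the rule (median -0.30), with Serpina1a (-0.12) and Serpina1b (-0.07) of smallest P. Within replicates 3 to 5 alone, where 4 of the 9 plasma cell genes passed, 4 of the 15 liver genes also passed as lower and 14 were negative (median -0.51). Alb was among them, at 78.5 to 102 FPKM in MWA and 35.1 to 68.1 in MWA+2DG without overlap (difference -0.73). MWA replicates 3 to 5 and MWA+2DG replicate 4 were high in both Jchain (265 to 484 FPKM) and Alb (68.1 to 102), and MWA replicates 1 and 2 and MWA+2DG replicate 2 were low in both (Jchain at 109 to 153, Alb at most 0.0486). MWA+2DG replicate 1 was high in Jchain (312) with Alb at 0.0449, and MWA+2DG replicates 3 and 5 were low in Jchain (94.0 and 106) with Alb at 35.1 and 61.5. Of the 9 genes, Fkbp11 had the smallest P for a difference between the sets with treatment in the fit (0.60 higher in replicates 3 to 5, limma, Benjamini-Hochberg adjusted p = 0.0697). Apart from these values, the part of the liver transcripts in the results was not tested.

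The 9 genes did not move as 1 block. After group means were subtracted, each gene was compared with the mean profile of the other 8 over the 10 libraries and ranked among 13326 genes. Jchain ranked 4 (r = 0.953), Derl3 11 (0.930), Sdc1 25 (0.886), Fkbp11 42 (0.853), Mzb1 102 (0.795) and Txndc5 150 (0.759). Prdm1 ranked 507 (0.615), Pou2af1 1487 (0.377) and Irf4 1514 (0.381, each place counted against that gene's own reference). All values of a library share its FPKM denominator, and these coefficients describe the 10 libraries only. Subtracting group means does not remove the split of Igkc, which runs through both groups. The coefficients and places here, and those of the genes named next, therefore also carry that split. The genes of antibody assembly and Sdc1 came before the 3 regulators in this order, without a clear break between Txndc5 and Prdm1. Prdm1 also had the lowest level of the 9, and Irf4 and Pou2af1 the smallest range between libraries. The part of level and range in the order was not tested.

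Beyond the 9, the genes whose centred profile was most like their mean were Pon3 (r = 0.981), Gm9855 (0.961), Txndc11 (0.959), Slpi (0.957), Serpina1c (0.930), Mir7678 (0.929), Bhlha15 (0.922), Lrrc59 (0.922), Xbp1 (0.900) and Tmem214 (0.891). Bhlha15 encodes MIST1, a transcription factor of secretory cells, and Xbp1 the factor that expands the secretory apparatus of plasma cells. Bhlha15 was at 0.990, 0.891, 4.29, 2.62 and 2.90 FPKM in MWA and at 2.06, 1.01, 1.14, 2.81 and 1.86 in MWA+2DG (difference -0.19, exact permutation p = 0.492). Slpi, a secreted protease inhibitor, varied widely, at 69.3, 84.6, 840, 381 and 636 FPKM in MWA and at 218, 69.0, 121, 369 and 128 in MWA+2DG (difference -0.76, exact permutation p = 0.246). Serpina1c, a gene also expressed in liver, was between 24.4 and 42.6 FPKM in all libraries. Of these 10 genes, Xbp1 alone passed the rule, and it did not after either rescaling.

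**Figure D5:**
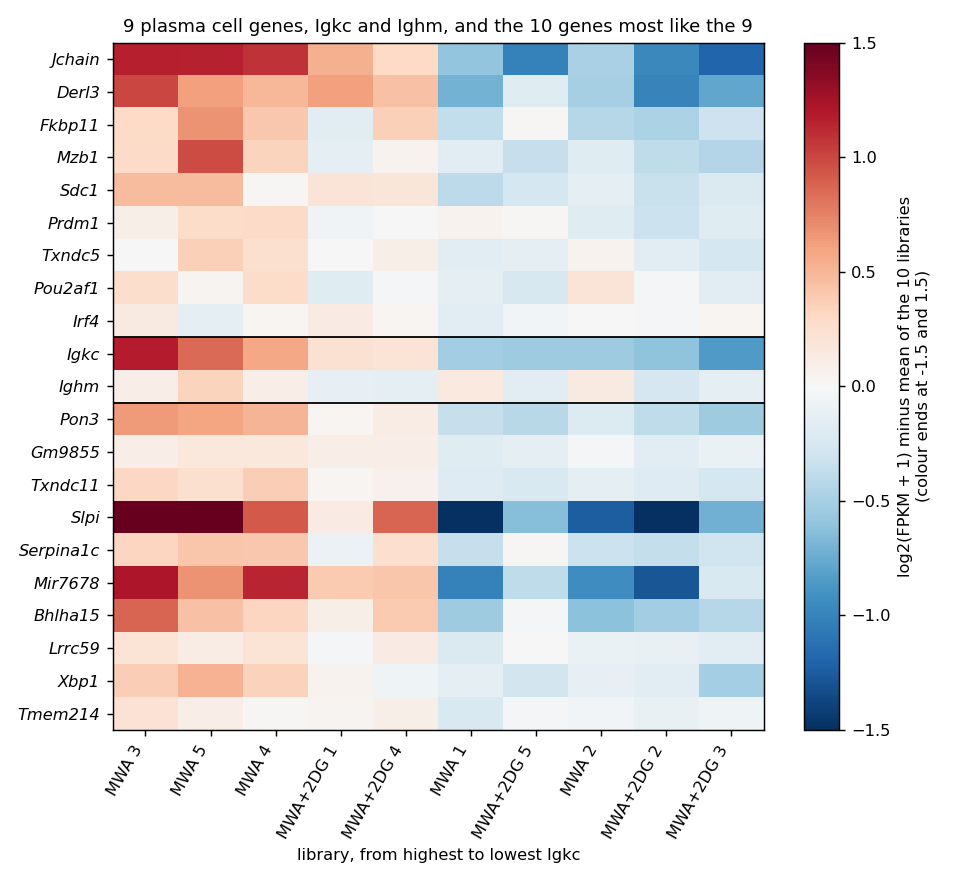
Deviation of log2(FPKM + 1) from each gene's mean over the 10 libraries (colour scale ending at -1.5 and 1.5), with libraries ordered by Igkc and lines between the 9 genes, Igkc with Ighm, and the 10 genes of most similar profile. Jchain, Derl3 and Slpi change colour between the 5 left and 5 right libraries, while Irf4 and Pou2af1 stay pale.

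Other genes of the plasma cell program gave a similar count. Of 16, 15 were tested, 14 had a negative difference (median -0.11), and 2 passed the rule as lower, where 1.87% of all genes did. After rescaling to 1000000, 12 of 15 were negative (median -0.05), and Eaf2 alone passed after either rescaling. Xbp1 was at 46.2, 47.3, 66.9, 65.5 and 74.0 FPKM in MWA and at 53.5, 45.4, 35.8, 48.9 and 42.4 in MWA+2DG (-0.39, SE 0.15, limma P = 0.0287, exact permutation p = 0.0714). Eaf2, an elongation factor partner, was between 5.89 and 8.56 FPKM in MWA and between 4.05 and 5.52 in MWA+2DG, without overlap (-0.54, SE 0.11, limma P = 0.000631, exact permutation p = 0.00794). Tnfrsf17, the receptor BCMA, was below the level filter, at 0.522 to 2.12 FPKM in MWA and 0 to 1.62 in MWA+2DG. The 12 immunoglobulin constant genes had a median of -0.42, all 12 were tested, and Ighm, Ighg2b and Ighg3 passed as lower. Ighg2b was at 44.1 to 276 FPKM in MWA and 21.3 to 86.2 in MWA+2DG (-1.56, SE 0.53, limma P = 0.0131, exact permutation p = 0.0397), and Ighg3 at 27.4 to 218 and 23.7 to 41.3 (-1.26, SE 0.54, limma P = 0.0409, exact permutation p = 0.143). Immunoglobulin genes together made up 3.93% and 4.36% of summed FPKM in MWA replicates 1 and 2 and at least 8.93% in MWA replicates 3 to 5. In MWA+2DG replicates 1 to 5 they made up 7.21%, 3.82%, 3.26%, 6.77% and 4.04%. Without the 2 libraries high in interferon-induced genes Eaf2 and Ighm still passed, and Xbp1, Ighg2b and Ighg3 did not.

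The chaperones of the unfolded protein response, which fold secreted proteins in every cell, showed no called gene. Of 12, 10 had a negative difference, the median was -0.02, and Herpud1 (-0.16) and Dnajb11 (-0.08) had the smallest P. After rescaling to 1000000 the median was 0.04 and 4 of 12 were negative, so no direction is given for them. None of 8 tested regulators opposed to plasma cell differentiation passed (median -0.06), with Bcl6, the repressor that maintains germinal centre B cells, at -0.28 (exact permutation p = 0.127) and Spib at -0.15. None of 14 B cell identity genes passed (median -0.07), although Blnk had an unadjusted limma P below 0.05 at -0.18 (exact permutation p = 0.0317), within the fold limit, and Ms4a1, the CD20 gene, was at -0.18. Survival ligands and homing receptors of plasma cells had a median of 0.00 over 8 tested genes, none called. Tnfsf13, the ligand APRIL, was at -0.35 (exact permutation p = 0.111) and the integrin Itga4 at 0.26 (exact permutation p = 0.103).

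Germinal centre B cells are a source of many plasma cells. Of 10 of their marker genes 8 passed the P and fold rule as lower, where 1.87% of all genes did, among them S1pr2, Mybl1, Gcsam, Rgs13, Mef2b, Nuggc and Basp1 (median -0.54 over the 10). None passed after adjustment over all genes tested (limma, Benjamini-Hochberg adjusted p = 0.995). Rgs13, a regulator of G protein signalling, was at 16.9, 24.8, 25.9, 27.9 and 23.1 FPKM in MWA and at 15.2, 17.99, 17.0, 16.0 and 9.21 in MWA+2DG (-0.63, SE 0.18, limma P = 0.00478, exact permutation p = 0.0238). MWA replicates 3 to 5 were high in both Rgs13 (23.1 to 27.9 FPKM) and Jchain (457 to 484). MWA replicate 1 and MWA+2DG replicates 2, 3 and 5 were low in both (9.21 to 17.99 and 94.0 to 142). MWA+2DG replicates 1 and 4 were low in Rgs13 (15.2 and 16.0) and high in Jchain (312 and 265). MWA replicate 2 was high in Rgs13 (24.8) and low in Jchain (153). A relation between the 2 genes was not tested. Without the 2 libraries high in interferon-induced genes 7 of the 10 passed (median -0.31). Cell division genes were lower for 7 of 14, Cdk1, Ccnb2, Birc5, Ccna2, Bub1, Cdc20 and Nusap1, and all 14 were negative (median -0.28), but without the same 2 libraries Cdk1 and Ccnb2 alone passed (2 of 14, median -0.14). Cdk1 was at 8.36 to 10.1 FPKM in MWA and 5.54 to 7.89 in MWA+2DG (-0.38, limma P = 0.00131, exact permutation p = 0.00794), and Ccnb2 differed by -0.44 (limma P = 0.00971, exact permutation p = 0.0159).

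Markers of other cells that use some of the 9 genes were examined in the same fit, and their part in the results was not tested. All 12 T cell genes were positive (median 0.17, summed FPKM 529 to 820 in MWA and 575 to 827 in MWA+2DG), where 7011 of all 13334 genes tested were. Tcf7 passed as higher (0.31, limma P = 0.00863, exact permutation p = 0.0397), followed by Cd28 (0.23). The 12 plasmacytoid dendritic cell genes had a median of 0.00 with none called, and Siglech was at 6.39 to 10.1 FPKM in MWA and 2.57 to 9.56 in MWA+2DG (-0.49, exact permutation p = 0.262). Their sum was 287 to 547 FPKM in MWA and 256 to 1059 in MWA+2DG. Of 10 epithelial genes only Krt18 (0.37) and Epcam (-0.05) reached the filter, neither was called, Krt8, Krt19, Krt5, Krt14 and Esrp1 were at 0 in at least 1 library, and the sum was 2.67 to 6.76 FPKM in MWA and 2.52 to 15.3 in MWA+2DG. None of 10 stromal genes (median -0.02, sum 414 to 632 and 383 to 568 FPKM, smallest P for Pdpn and Ccl19) and none of 7 lymphatic endothelial genes (median -0.03, sum 19.7 to 36.8 and 18.9 to 32.7 FPKM, smallest P for Pdpn and Ackr4) was called. Of 9 macrophage genes Csf1r passed as lower (-0.30, limma P = 0.0482, exact permutation p = 0.0794), but none did without the 2 libraries high in interferon-induced genes, in replicates 3 to 5 alone or after either rescaling. Siglec1 was at -0.25, and the sum was 198 to 295 FPKM in MWA and 176 to 240 in MWA+2DG. Among the lymph node genes, Cd3e differed by 0.21 and did not pass.

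Promoter sequence was read for 8 of the 9 genes from RefSeq (mouse build GRCm38.p6, 250 bases before to 50 after each start, positions counted from the start), whereas the submitters' processing notes name mm9, so only sequence was taken and no position was joined to the files. Mzb1 was not searched. The stretches below show the matches to 2 elements of the secretory stress response that lie upstream of a start, with the match in capitals. The endoplasmic reticulum stress element, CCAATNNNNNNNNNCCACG, was found at -156 to -138 of Derl3 on the reverse strand (chr10:75893217-75893285, plus strand, intergenic in GENCODE M21). The unfolded protein response core, TGACGTG, was found at -61 to -55 of Pou2af1 (chr9:51213604-51213660, plus strand, intergenic) and at -138 to -132 of 1 of 3 Txndc5 starts (chr13:38528021-38528077, minus strand, inside the Txndc5 gene and in an exon of Gm31834 on the other strand).
Derl3: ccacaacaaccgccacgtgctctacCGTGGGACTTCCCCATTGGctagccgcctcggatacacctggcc
Pou2af1: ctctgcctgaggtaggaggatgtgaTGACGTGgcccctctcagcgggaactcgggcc
Txndc5: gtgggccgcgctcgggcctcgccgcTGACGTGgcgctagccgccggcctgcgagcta

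These letters were searched on both strands in all 32851 promoters of that length. The stress element occurred in 0.119% of them and the response core in 2.01%. Fkbp11 held the response core on the reverse strand at positions 1 to 7 of 1 of its 2 starts. The octamer ATGCAAAT, the site of Oct factors that the product of Pou2af1 works with, occurred in 1.74% of promoters and in none of the 8 genes. A pair of GAAA, written GAAANNGAAA, occurred in 3.44% and at 1 other Txndc5 start. Irf4, Jchain, Prdm1 and Sdc1 held none of the 4 motifs in this window. The 3 genes with printed stretches differed in these data, since Derl3 varied 4.75-fold between libraries and Pou2af1 1.43-fold. A match describes the letters of a window and not the binding of a factor.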

How the data were processed

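Bulk RNA-seq of 10 TDLN libraries was analysed. The authors trimmed reads (fastp in the study's methods, cutadapt 1.9 in the submitters' processing notes), mapped them with HISAT2 2.0.4 (mm9 per the notes), assembled transcripts with StringTie 1.3.4d and deposited FPKM per gene, which is normalized to transcript length and mapped fragments. The notes also name UMI-tools. The sources used here do not give the annotation release. Read counts could not be recovered, since the smallest FPKM above 0 was 1e-06, so depth and counting error are unknown.

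Groups came from the sample labels. Symbols were found for 33541 of 33643 identifiers, and 57 symbols with several identifiers were summed. limma 3.58.1 in R 4.3.3 was run on log2(FPKM + 1), a pseudocount of 1, over the 13334 genes averaging 1 FPKM or more, with the study's rule of P below 0.05 and log fold change beyond 0.25, read here as log2. Exact permutation tests used Python 3.11.15 and scipy 1.17.1. The fits were tested on simulated data. Genes were named by a rule: the 9 genes, Igkc, Ighm, the 2 genes of smallest P and those past the P and fold rule in each of the other 16 lists written by hand, and the 10 genes most like the 9. A few of the genes so chosen are left out. Tnfrsf17, Alb, Irf7 and some lymph node genes were named after their values were seen. The 9 genes and the lists were chosen with earlier results of these data known, and the lists are counted and not tested. Correlations with Igkc and Ighm had been planned and were replaced by counts of shared libraries, because the libraries formed clusters. Alternatives were other pseudocounts, filters, scalings, tests, blocks and leaving out each mouse, and 2 were added after seeing the data, replicates 3 to 5 alone and without the 2 libraries high in interferon-induced genes. Equal replicate numbers were not taken to pair the mice, since the correlation of their deviations was 0.331, 0.501, 0.11, 0.0334 and 0.151 for replicates 1 to 5, not above 0.1 in every pair.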

Additional observations from a re-analysis of the deposited data

Results flagged for a closer look

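Ighm in MWA replicate 5, at 1164 FPKM, stood apart from the other 4 MWA libraries, the next of which was at 1024 (the gap was 0.809 of the group's range). The 9 genes, Igkc and Ighm were examined this way in both groups, 22 sets of values in all, and chance sets a sample apart in about 1 in 20 such sets. Without that library the remaining 4 MWA values of Ighm, 991 to 1024, were still above every MWA+2DG value. No library stood apart in this way for any of the 9 genes.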

How the results depend on the processing

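The number of genes past the P and fold rule was 376. It was 210 by the Wilcoxon test, 230 with a filter of 5 FPKM, 567 without a fold limit, and between 280 and 513 when 1 mouse was left out. Of the 9 genes, 2 passed. That number was 1 by the Wilcoxon test (Pou2af1), 1 after quantile normalization, 1 after rescaling to 1000000 with or without immunoglobulin genes (Mzb1 in each), 4 in replicates 3 to 5 alone and 0 without the 2 libraries high in interferon-induced genes. When 1 mouse was left out it was between 0 and 4, with 0 without MWA replicate 3, MWA replicate 4, MWA+2DG replicate 3 or MWA+2DG replicate 5, and 4 without MWA replicate 1. The count of immunoglobulin ratios with an exact permutation p below 0.05, 1 of 18, was between 1 and 2. The cause of these changes was not tested.

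Among the values of single genes and ratios the sign turned in 2 cases, both close to 0: Irf4 in replicates 3 to 5 alone (-0.0046) and the Mzb1 to Igkc ratio without MWA replicate 3 (-0.096, with values up to 0.22 when another mouse was left out). Ighm passed the rule under every alternative. Without MWA+2DG replicate 5 the genes past the rule were 222 higher and 177 lower, against 127 and 249. After rescaling to 1000000 the medians of the chaperone, stromal, lymphatic endothelial and lymph node lists turned positive (0.04, 0.04, 0.03 and 0.05). The filter of 5 FPKM removed Sdc1, Prdm1 and Fkbp11. With the replicate number as a block (replicate block), 164 genes were higher and 285 lower, and Mzb1 and Pou2af1 passed as before. Only 3 of 10 libraries correlated best with their own number. The alternatives planned for correlations with Igkc and Ighm were not run, because no such correlation is given. The unknown depth limits Prdm1, Fkbp11 and Sdc1 most, which have the lowest levels.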
